A study of Homo sapiens with 2 samples.

Results

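Nuclear receptors are transcription factors whose activity is set by small lipophilic ligands such as steroids, retinoids, fatty acids and oxysterols, or, for the orphans among them, mainly by how much of the receptor is made. The liver X receptors (LXRs) belong to this superfamily and bind DNA as heterodimers with the retinoid X receptors (RXRs), which also serve as partners of the retinoic acid, thyroid hormone, vitamin D and peroxisome proliferator-activated receptors. Here the mRNA levels of the other human nuclear receptors, 44 genes of the superfamily chosen by symbol with the LXRs left out, were examined in glioblastoma cells given an LXR agonist. Of these 44 genes, 39 were matched by symbol to a probe set among 22458 named genes, and NR1H4, NR1I2, HNF4A, NR2F2 and NR0B1 were not analysed here.

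U87 cells, an established human glioblastoma line, were treated with 20 µM LXR623, a synthetic LXR agonist, for 24 h, and the control cells with 0.1% DMSO, the solvent. The treatment label of the control gives no time, which was taken to be the same. RNA of each condition was hybridized to 1 array (n = 1 each), so differences could be neither checked against replicates nor tested, and precision is limited by the number of arrays. Each value is the log2 expression of 1 probe set per gene, and each difference is log2 LXR623 minus log2 DMSO, describing these 2 arrays. The culture text of the labels names HCT116, a colon carcinoma line, whereas the other labels name U87. All 9 measured markers of mesenchymal glioma lines, among them vimentin (VIM) and CD44, were bright (mean log2 7.34 to 12.3), whereas the 10 markers of colon epithelium ranged from 3.05 to 5.88, and 5 of them, including E-cadherin (CDH1) at 3.57, did not exceed 4.22, the 95th percentile of 374 olfactory receptor genes, a family silent in most cells outside the nose. Of the 6 astrocyte markers, 3 exceeded that level, among them SLC1A3 and GFAP, while AQP4 and S100B did not pass the level filter.

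Next, it was asked which receptors were expressed. Probes differ in how well they bind their targets, so a level was set only against a limit and not against that of another receptor. As a first limit, a gene was kept if its mean log2 was at or above 3.39, the 25th percentile over the table. Of the 39 measured receptors, 33 were kept (84.6%), as were 75.3% of all named genes. This limit also kept 80 of the 374 olfactory receptor genes, so passing it does not by itself show expression. The second limit was the olfactory receptor level of 4.22. Above it were 27 receptors, and 61.1% of all named genes. The 6 receptors not kept were RXRG, NR1I3 (the xenobiotic sensor CAR), NR5A2 (LRH-1), the progesterone receptor PGR, NR2E1 (TLX, a neural stem cell factor) and the atypical receptor NR0B2 (SHP), with values between 2.72 and 3.49 on either array. Another 6, ESR2, ESRRB, ESRRG, NR4A3, NR2E3 and NR5A1, were kept but did not exceed the olfactory receptor level. Their means thus lie in the range that silent genes can reach.

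**Figure D1:**
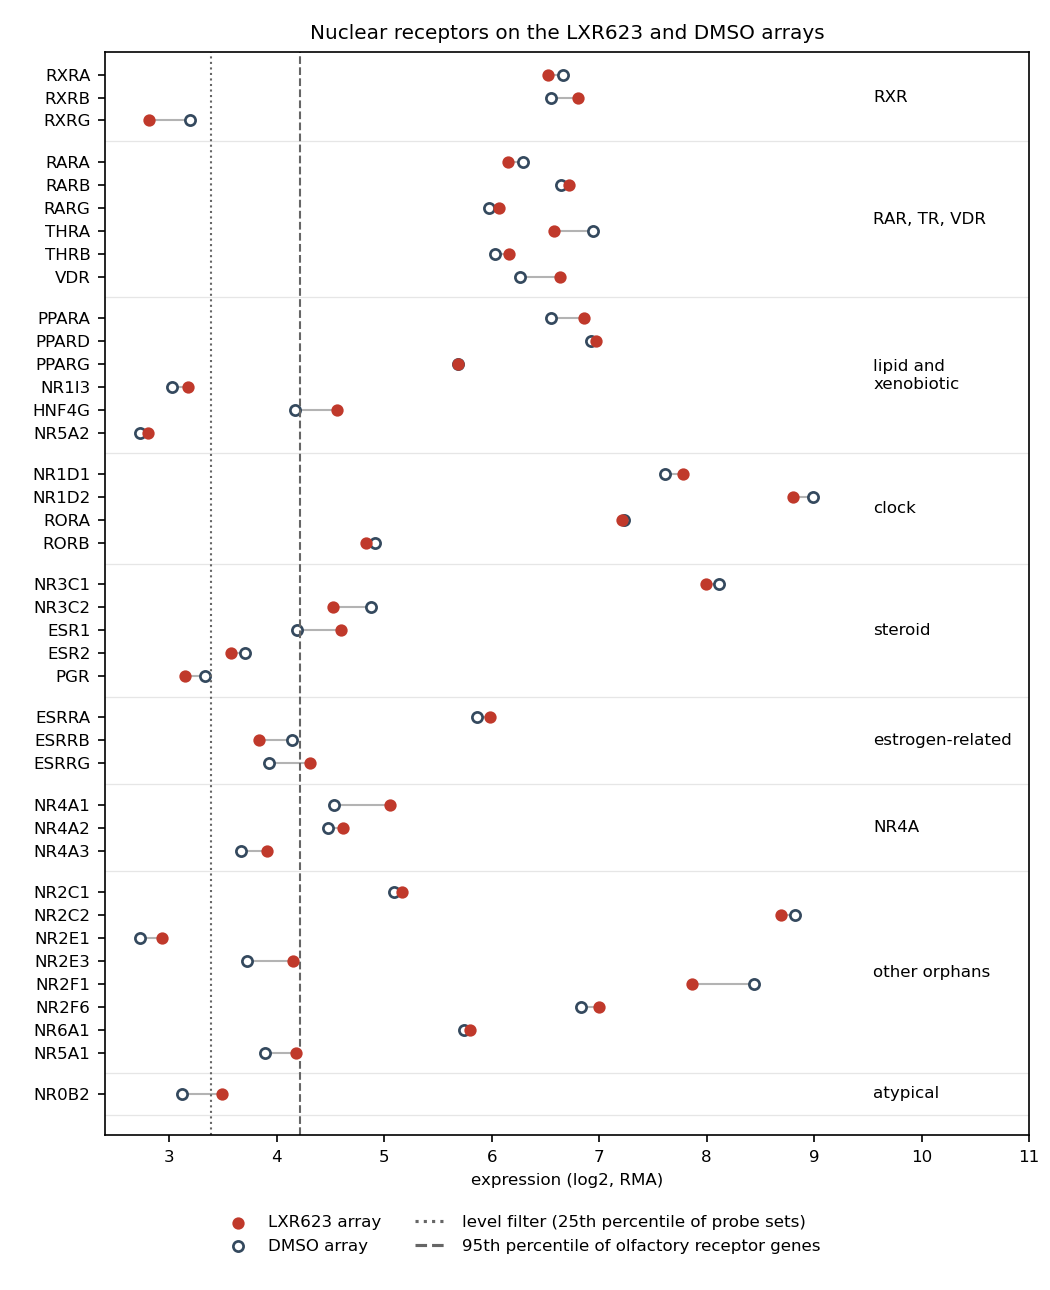
Log2 expression of the 39 measured nuclear receptors on the LXR623 array (filled) and the DMSO array (open), by receptor group; the dotted line is the level filter (3.39) and the dashed line the 95th percentile of olfactory receptor genes (4.22). The points of most receptors nearly coincide, and among receptors above the median level of all probe sets (4.89) the widest gaps are those of NR2F1, VDR and THRA.

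None of the 33 kept receptors differed at least 1.5-fold between the LXR623 and DMSO arrays, where 4.38% of the 16902 kept genes did. With 33 genes, a count of 0 is not far from that share. The differences ran from -0.57 (NR2F1) to 0.52 (NR4A1). The median absolute difference of the receptors was 0.16, and that of all kept genes was 0.16. Higher in the LXR623 array were 20 receptors, 12 were lower, and PPARG had the same value on both arrays, whereas 48.8% of all kept genes were higher and 48.3% lower. Their median difference was 0.08, against 0 for all kept genes. With each array centered on its own median, which lowers every difference by 0.040, 20 receptors were higher and 13 lower, and NR2F1 then passed 1.5-fold. Under that centering the genes past 1.5-fold in the whole table were 319 higher and 427 lower, instead of 402 higher and 339 lower. At a lower threshold of 1.2-fold, chosen after the values were seen, 12 receptors passed, where 28.9% of all kept genes did. Of these, 8 were higher (NR4A1, NR2E3, ESR1, HNF4G, ESRRG, VDR, PPARA and NR5A1, with a background of 15.3%) and 4 lower (NR2F1, THRA, NR3C2 and ESRRB, with a background of 13.6%). NR2E3, ESRRG, NR5A1 and ESRRB did not exceed the olfactory receptor level. Among the 27 receptors above it, 5 were higher and 3 lower by at least 1.2-fold. ESR1 and HNF4G are among those 5, but their DMSO values (4.18 and 4.17) were under that level. As a guide to scatter, kept genes were divided into 5 equal groups by level, and the central 95% of differences in each group was noted. This range comes from the same 2 arrays, so it is not a replicate error and serves as no test. Only NR2F1, of 33 receptors, lay outside the range of its group, as do about 5% of all genes by construction.

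**Figure D2:**
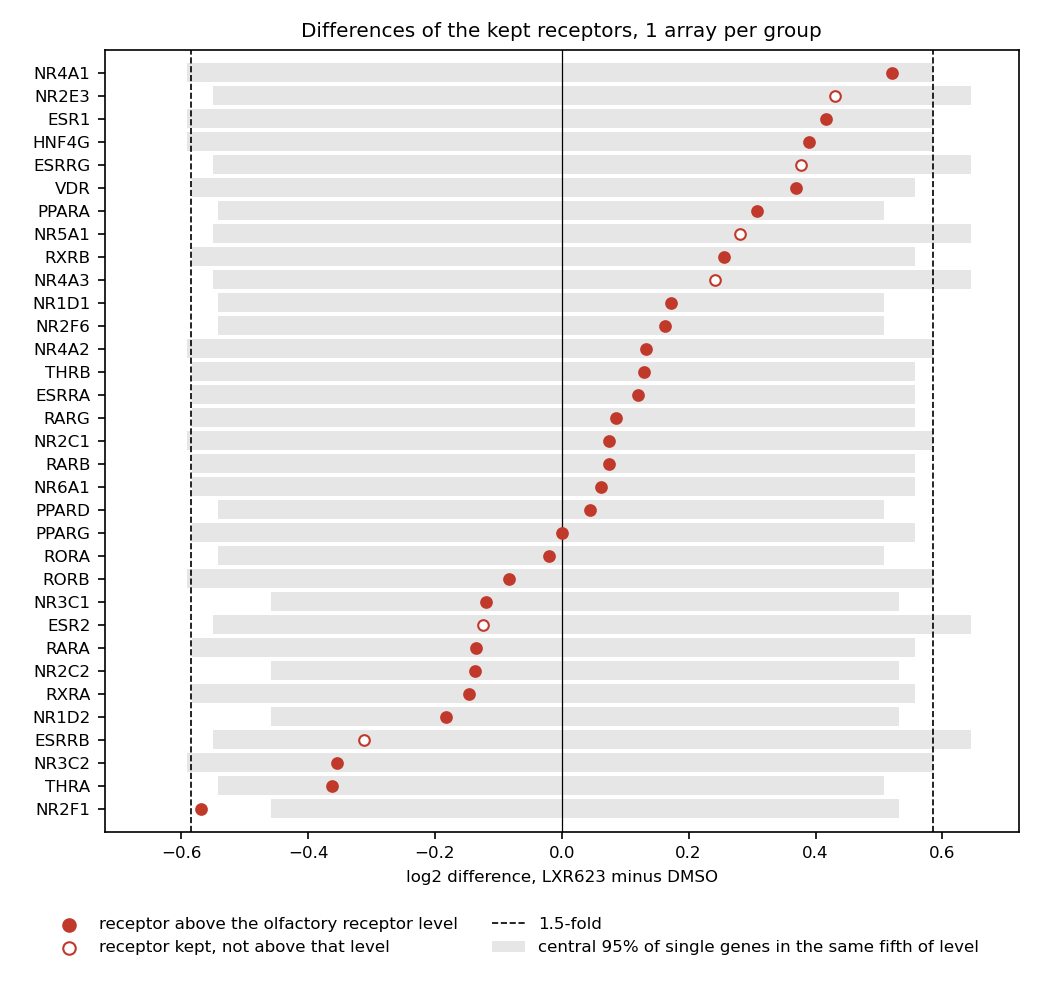
Log2 difference, LXR623 minus DMSO, of each of the 33 kept receptors (points, open where the mean did not exceed the olfactory receptor level). Also shown are the central 95% of single genes at a like level (gray) and the 1.5-fold limits (dashed). The receptors run from NR4A1 at 0.52 to NR2F1 at -0.57, and NR2F1 alone falls outside its gray range.

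**Figure D3:**
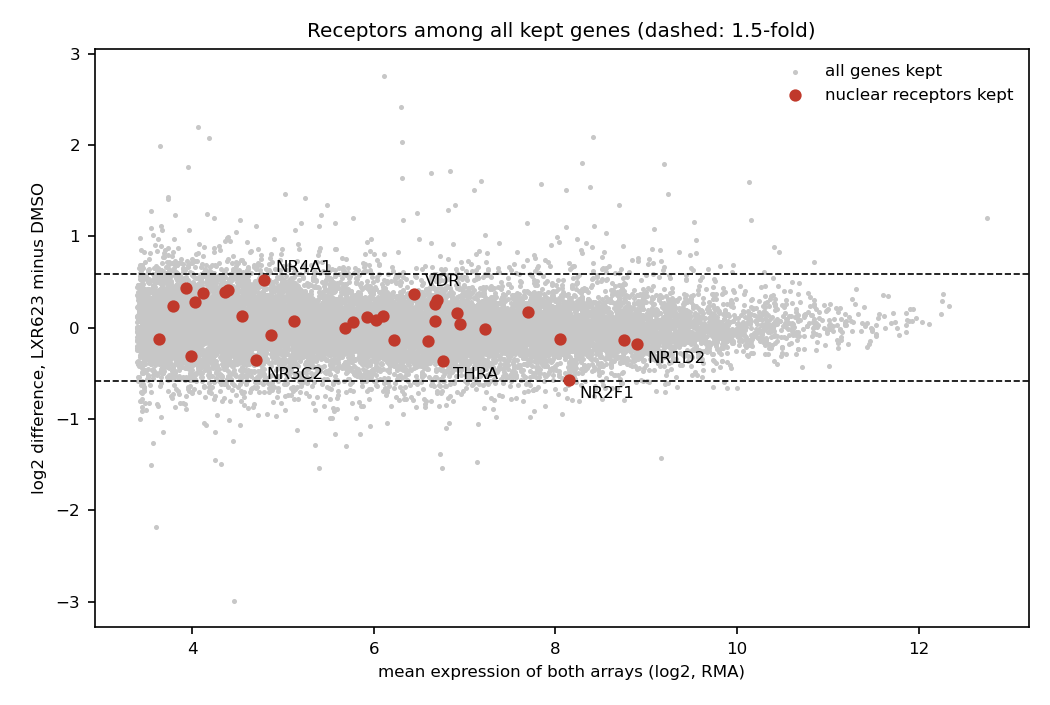
Log2 difference, LXR623 minus DMSO, of all 16902 kept genes (gray) against their mean log2 level, with the 33 kept nuclear receptors (red) and 1.5-fold as dashed lines. The receptors stay between the dashed lines, with NR4A1 at 0.52 and NR2F1 at -0.57 nearest to them, while some other genes differ by more than 2.

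The receptors at both ends of this range were NR2F1 and NR4A1. NR2F1 (COUP-TFI) is an orphan receptor that shapes neural development and often represses transcription. NR4A1 and its relatives NR4A2 and NR4A3 (Nur77, Nurr1 and Nor-1) are orphan receptors known as immediate early genes, since cAMP, calcium and growth factor signals switch on their transcription within a short time. The RefSeq promoter windows of NR2F1 and NR4A1 are shown because these genes hold the extreme differences, and that of NR4A3, whose difference was not extreme (0.24), because it carries several copies of TGACG, the core of the cAMP response element, which are in capitals. Each window has 250 bases before and 50 after a gene's outermost start in the table (GRCh38.p14, plus strand), NR2F1 at chr5:93582972-93583271, NR4A1 at chr12:52022582-52022881 and NR4A3 at chr9:99821635-99821934.
NR2F1: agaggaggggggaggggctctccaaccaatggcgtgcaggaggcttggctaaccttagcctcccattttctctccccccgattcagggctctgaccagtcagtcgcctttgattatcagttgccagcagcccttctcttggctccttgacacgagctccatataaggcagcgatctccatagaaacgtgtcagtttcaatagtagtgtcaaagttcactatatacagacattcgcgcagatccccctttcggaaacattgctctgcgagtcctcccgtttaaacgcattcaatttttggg
NR4A1: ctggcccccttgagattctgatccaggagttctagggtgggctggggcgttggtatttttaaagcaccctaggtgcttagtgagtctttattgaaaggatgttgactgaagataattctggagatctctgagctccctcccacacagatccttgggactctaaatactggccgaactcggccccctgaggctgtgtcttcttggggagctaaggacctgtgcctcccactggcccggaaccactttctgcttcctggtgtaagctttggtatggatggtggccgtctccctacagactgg
NR4A3: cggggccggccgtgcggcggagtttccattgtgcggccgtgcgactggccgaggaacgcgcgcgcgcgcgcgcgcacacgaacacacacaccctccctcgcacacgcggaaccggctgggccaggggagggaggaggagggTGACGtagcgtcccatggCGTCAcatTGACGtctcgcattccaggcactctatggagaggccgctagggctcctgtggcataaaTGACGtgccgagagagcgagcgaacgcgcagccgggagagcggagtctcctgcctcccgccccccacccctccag

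The search covered TGACG, the full cAMP response element TGACGTCA, the E-box CACGTG, the nuclear receptor core AGGTCA and TATAAA on either strand. TGACGTCA was in none of the printed windows, that of NR4A3 included. It was in 2.20% of receptor windows, compared with 1.85% of all windows. The NR4A3 window held 4 matches to TGACG, none overlapping another motif, and the printed windows of NR2F1 and NR4A1 held no match to any of these letters. NR2F1 and NR4A1 each have a further start site in the table that is not shown, and the further window of NR2F1 holds TATAAA. NR4A2 is not in the table. Of the 44 receptors, measured or not, 39 had an entry in the table, and across their 91 windows TGACG was in 22.0%, compared with 24.6% of all 35116 windows, CACGTG in 9.89% compared with 7.26%, AGGTCA in 16.5% compared with 13.8%, and TATAAA in 8.79% compared with 11.5%. The repeat of AGGTCA with 4 spacer bases (DR4), the type of element that LXR and RXR bind together, was in 0 receptor windows and in 7 of all windows. A match of letters is a description and not a binding site.

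NR2F1 was at 7.87 on the LXR623 array and 8.44 on the DMSO array, 1.48-fold lower (-0.57), with -0.46 to 0.53 as the central 95% at its level. This was the lowest difference of the kept receptors, and NR2F1 stands well above the olfactory receptor level on both arrays. NR2F1-AS1, a non-coding RNA that overlaps the NR2F1 locus and was looked up after the value of NR2F1 was seen, was at 4.84 with LXR623 and 5.01 with DMSO (-0.17). Whether the probes of NR2F1 read only 1 strand was not tested. Among the other members of its subfamily, NR2F6 (EAR2) was at 6.99 and 6.83 on the LXR623 and DMSO arrays (0.16), within the scatter at its level.

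In the NR4A family each of the 3 members was higher with LXR623, as also seen after centering and after removal of a trend on level. NR4A1 was at 5.06 with LXR623 and 4.54 with DMSO, 1.43-fold higher (0.52), the highest difference of the kept receptors. NR4A2 was at 4.61 with LXR623 and 4.48 with DMSO (0.13), and NR4A3 at 3.91 with LXR623 and 3.67 with DMSO (0.24), on both arrays under the olfactory receptor level. Each of these differences lay inside the scatter of single genes at its level (for NR4A1, -0.59 to 0.58). Early response genes that the same signals induce showed a like direction. Of 12 kept members of that list, 10 were higher and 2 lower, with a median of 0.18 against 0 for all kept genes, of which 48.8% were higher. Among them ATF3, a stress-responsive factor, was at least 1.5-fold higher (5.41 with LXR623 and 4.72 with DMSO, 0.69), where 2.38% of all kept genes were. FOSB and DUSP1, a phosphatase that restrains MAP kinases, both differed by 0.52, FOS by 0.47, and EGR1 by -0.02.

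The RXRs are the partners of LXR on DNA. RXRA was at 6.52 with LXR623 and 6.67 with DMSO (-0.15), RXRB at 6.80 with LXR623 and 6.55 with DMSO (0.26), and RXRG, below the level filter, at 2.81 with LXR623 and 3.19 with DMSO (-0.38). RXRA and RXRB thus went in opposite directions, both within the scatter at their level. For comparison, NR1H3, which encodes LXR alpha, differed by 0.14, and NR1H2 was not analysed here.

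Among the partners of RXR, the retinoic acid receptors differed little. RARA differed by -0.14, RARB by 0.07 and RARG by 0.09, and all 3 exceeded the olfactory receptor level. VDR, the vitamin D receptor, was at 6.63 with LXR623 and 6.26 with DMSO, 1.29-fold higher (0.37). The thyroid hormone receptor THRA was at 6.58 with LXR623 and 6.94 with DMSO, 1.28-fold lower (-0.36), while its paralog THRB differed by 0.13. THRA overlaps NR1D1 on chromosome 17, where the genes lie on opposite strands, and NR1D1 differed by 0.17. RARA also lies on chromosome 17, and THRB, NR1D2 and RARB lie on chromosome 3, an ancient duplication of the same trio. The members of neither trio shared a direction.

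Genes that handle or answer to these ligands were next examined, from lists of known targets and enzymes. Of 10 kept retinoid genes, 4 were higher and 6 lower, none of them at least 1.5-fold, with a median of -0.05. DHRS3, which reduces retinal to retinol, differed by 0.40 and the retinoid importer STRA6 by 0.21. Of 5 kept vitamin D genes, 3 were higher and 2 lower and none passed 1.5-fold. The vitamin D 25-hydroxylase CYP2R1 differed by 0.49 and SPP1 (osteopontin) by 0.35. CYP24A1, the ligand-degrading enzyme that VDR induces, differed by -0.31, with its mean under the olfactory receptor level. Only 3 of 8 measured thyroid hormone genes were kept, all 3 of them higher, where 48.8% of all kept genes were. Their median was 0.23, against 0.072 over all 8 without the level filter. CRYM, which binds thyroid hormone in the cytosol, was at 6.01 with LXR623 and 5.41 with DMSO, 1.51-fold higher (0.60), where 2.38% of all kept genes were higher by at least 1.5-fold. With each array centered on its own median, CRYM fell short of 1.5-fold (0.56).

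The PPARs sense fatty acids and switch on their oxidation and storage. PPARA was at 6.85 with LXR623 and 6.55 with DMSO (0.31), PPARD at 6.97 with LXR623 and 6.92 with DMSO (0.04), and PPARG at 5.68 on both arrays. All 3 exceeded the olfactory receptor level and lay within the scatter. Of 7 kept PPAR targets, 3 were higher and 4 lower, with a median of -0.16 that turned to 0.12 over the 5 targets above the olfactory receptor level. At least 1.5-fold lower were PDK4, which restrains pyruvate oxidation (3.80 with LXR623 and 4.46 with DMSO, -0.65), and CYP4A11, a fatty acid hydroxylase (3.83 with LXR623 and 4.53 with DMSO, -0.71), where 2.01% of all kept genes were lower by that much. Both were dim, with means under the olfactory receptor level. CPT1A, the entry step of mitochondrial fatty acid oxidation and bright on both arrays, differed by -0.33, and FABP3 by 0.51.

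The remaining lipid and xenobiotic sensors were dim. HNF4G was at 4.56 with LXR623 and 4.17 with DMSO (0.39), with a mean just over the olfactory receptor level, and a pseudogene of it, HNF4GP1, is annotated. NR1I3 differed by 0.16, NR5A2 by 0.08 and NR0B2 by 0.37, all 3 below the level filter. The list of hepatic targets was drawn up for NR1H4 (FXR), NR1I2 (PXR), NR1I3 (CAR) and HNF4A. Of these receptors only NR1I3 was analysed here. Among the 12 measured targets, only TTR exceeded the olfactory receptor level. None of the 6 kept targets passed 1.5-fold, and APOA4, at 0.47, and FGF19, at 0.27, differed most.

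The clock receptors include the repressors NR1D1 and NR1D2 (REV-ERB alpha and beta) and the activators RORA and RORB, which compete for the same elements in clock genes such as BMAL1. NR1D1 was at 7.78 with LXR623 and 7.61 with DMSO (0.17). NR1D2 was at 8.81 with LXR623 and 8.99 with DMSO (-0.18). RORA was at 7.21 with LXR623 and 7.23 with DMSO (-0.02), a sign that turned when a trend on level was removed (0.01), and RORB at 4.83 with LXR623 and 4.91 with DMSO (-0.08). The paired repressors thus differed in opposite directions, and all 4 receptors lay within the scatter. All 15 clock genes of this loop were kept, with 6 higher, 9 lower, a median of -0.10 and none past 1.5-fold. BHLHE40 (DEC1), a repressor of the loop that also answers to stress signals, differed by 0.54, the period gene PER3 by -0.31, and BMAL1 by 0.10.

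Of the steroid receptors, the glucocorticoid receptor NR3C1 was at 7.99 with LXR623 and 8.11 with DMSO (-0.12). A pseudogene of NR3C1, NR3C1P1, is annotated, and its part in this value was not tested. The mineralocorticoid receptor NR3C2 was at 4.52 with LXR623 and 4.88 with DMSO, 1.28-fold lower (-0.35). The estrogen receptor ESR1 was at 4.60 with LXR623 and 4.18 with DMSO, 1.33-fold higher (0.42). ESR1 and NR3C2 were dim, so their differences are the less certain, and both lay within the scatter at their level. ESR2 was at 3.58 with LXR623 and 3.70 with DMSO (-0.12), and PGR at 3.15 with LXR623 and 3.33 with DMSO (-0.18). Among the estrogen-related receptors, orphans that drive mitochondrial genes, ESRRA alone exceeded the olfactory receptor level and differed by 0.12, with 2 annotated pseudogenes whose part in its value was not tested, while ESRRB differed by -0.31 and ESRRG by 0.38.

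Glucocorticoid receptor targets and cofactors went both ways. Of 12 kept members, 5 were higher and 7 lower, with a median of -0.09, or -0.22 over the 10 above the olfactory receptor level. At least 1.5-fold different were 2 higher and 1 lower, with backgrounds of 2.38% and 2.01%. The metallothionein MT2A was at 13.35 with LXR623 and 12.15 with DMSO, 2.30-fold higher. It also answers to metals and stress and belongs to a family of similar genes. ZBTB16, a zinc finger factor, was at 3.92 with LXR623 and 2.94 with DMSO (0.98), but its DMSO value did not reach the level filter, which leaves the size of this difference uncertain. FKBP5, a cochaperone of the receptor, was at 4.88 with LXR623 and 5.52 with DMSO, 1.56-fold lower (-0.64). Of 6 kept estrogen and progesterone targets, 3 were higher and 3 lower, with IGFBP4 at -0.38 and CTSD (cathepsin D) at 0.30. Of 7 kept genes of steroid and oxysterol synthesis, 2 were higher and 5 lower, none past 1.5-fold, with the steroid reductase SRD5A1 at -0.54 and CYP17A1 at -0.35. CYP17A1 was under the olfactory receptor level on both arrays, and only 3 of the 7 exceeded that level.

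The other orphans were NR2C1 and NR2C2 (TR2 and TR4), NR2E1, NR2E3, NR5A1 and NR6A1. NR2C2 was at 8.69 with LXR623 and 8.83 with DMSO (-0.14), NR2C1 differed by 0.08 and NR6A1 (GCNF) by 0.06. NR2E3, a photoreceptor factor, was at 4.15 with LXR623 and 3.72 with DMSO (0.43). NR5A1 (SF-1), the factor of steroid-making tissues, was at 4.17 with LXR623 and 3.89 with DMSO (0.28). Both genes were under the olfactory receptor level on either array. NR2E1 differed by 0.21 below the level filter.

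Coregulators, which the receptors recruit to open or close chromatin, were mostly bright, all but PPARGC1B and CTBP2 above the median level of all probe sets. Of all kept genes, 48.8% were higher and 48.3% lower. All 16 measured coactivators were kept, with 5 higher and 11 lower and a median of -0.04, or -0.01 with the trend on level removed. KAT2B (PCAF), a histone acetyltransferase, was the only one past 1.5-fold, where 2.01% of all kept genes were lower by at least 1.5-fold. It was at 7.93 with LXR623 and 8.52 with DMSO, 1.50-fold lower (-0.59). With the trend on level removed, KAT2B fell short of 1.5-fold (-0.56). The remaining coactivators lay between -0.30 (PPARGC1A, which drives mitochondrial biogenesis) and 0.20 (PRMT1). Of the 12 measured corepressors, 3 were higher and 9 lower, with a median of -0.13, or -0.09 with that trend removed, and none passed 1.5-fold. TBL1X, a subunit of the NCoR complex, differed by 0.44 and the deacetylase HDAC1 by -0.34.

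**Figure D4:**
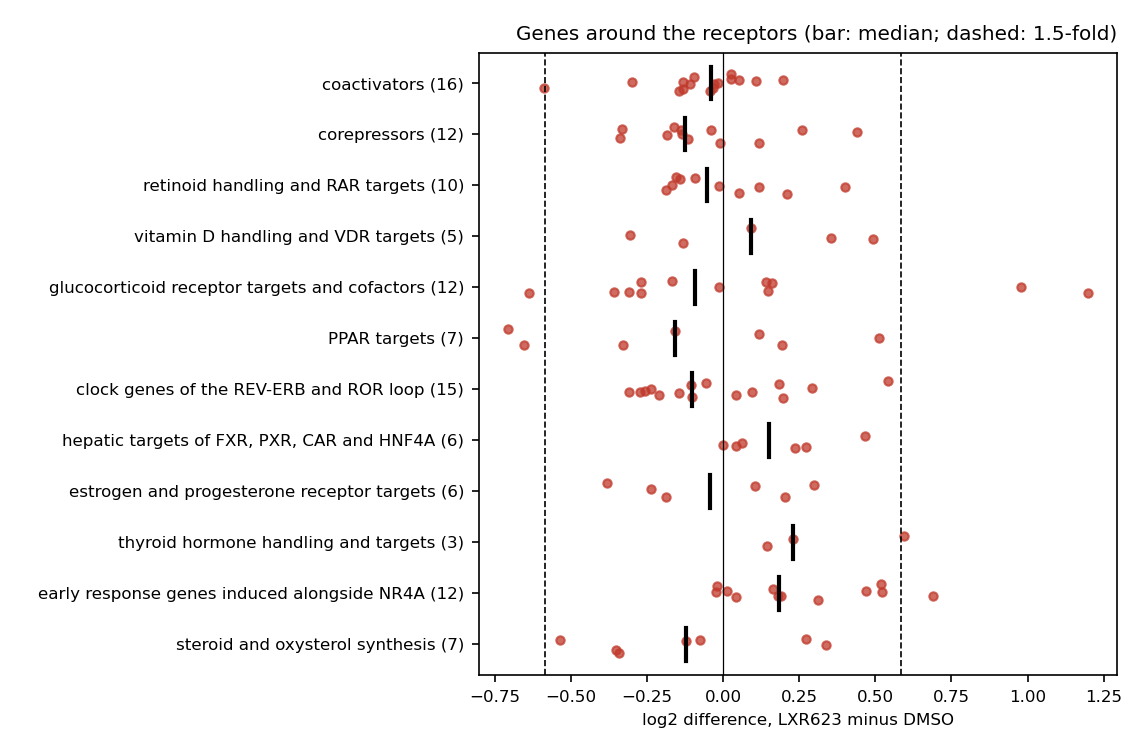
Log2 difference, LXR623 minus DMSO, of each kept gene (points) in 12 lists of receptor coregulators, ligand handling genes and targets, with the number kept in parentheses, the median as a bar and 1.5-fold as dashed lines. Medians run from -0.16 (PPAR targets) to 0.23 (thyroid hormone genes, 3 kept), and the farthest points are MT2A (2.30-fold) and ZBTB16 at 0.98 in the glucocorticoid receptor list.

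Across the 12 lists, 111 of 145 measured genes were kept, of which 52 were higher, 58 lower and 8 past 1.5-fold (4 in each direction), with a median of -0.01. Of all kept genes 4.38% passed 1.5-fold, 2.38% higher and 2.01% lower. The 8 genes were KAT2B, MT2A, ZBTB16, FKBP5, PDK4, CYP4A11, CRYM and ATF3, of which ZBTB16 met the level filter through its LXR623 value alone.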

How the data were processed

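Total RNA was biotin-labelled with a whole-transcript reagent and run on 1 Affymetrix array per group. The deposited table gives log2 expression for 23786 probe sets, which the authors computed by RMA (background correction, quantile normalization and median polish) with affy 1.36.1 in R 2.15.1, per the submitters' processing notes. The array model and the build are not given in the sources used here. Shifts shared by most genes are removed by the quantile step, and RMA compresses differences of dim genes. Array medians were 4.92 (LXR623) and 4.88 (DMSO). Symbols came from the platform annotation (1 gene per listed probe set) and promoter windows from RefSeq.

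Groups followed the treatment labels. With 1 array per group no test exists, and a gene counted as different past 1.5-fold. The receptors and lists were chosen with earlier results of these data known. Of each list, up to 4 genes past 1.5-fold were named, or else the 2 with the largest differences. CYP24A1, CPT1A, FABP3, BMAL1, TTR, FOSB, DUSP1, FOS, EGR1, PPARGC1A, PPARGC1B, PRMT1, CTBP2 and NR2F1-AS1 were named after their values were seen. Alternatives were other scalings, level filters and thresholds, and the mean. Python 3.11.15, numpy 2.4.6, pandas 2.3.3, statsmodels 0.14.6 and matplotlib 3.10.9 were used.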

Additional observations from a re-analysis of the deposited data

How the results depend on the processing

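The count of receptors past 1.5-fold stayed at 0 under removal of a lowess curve on level (span 0.3), each level filter, omission of probe sets of identical value and a 2-fold threshold. It was 1 (NR2F1) with each array centered on its median, by construction of the shift of 0.040, and 12 at 1.2-fold, a threshold added after the data were seen. The filter at the 50th percentile kept 21 receptors and left 436 of all genes past 1.5-fold, as fewer genes entered; 85 passed 2-fold and 4891 passed 1.2-fold. The median of the receptors ran from 0.04 to 0.09 over all settings. Of 66 receptor differences under the scalings, 0 moved by more than the SD of single genes in their level group, which says little since the scalings shift values slightly. Of 66 medians of lists, 7 moved, all where the filter changed which members entered. Without a filter the median was 0.28 for vitamin D and 0.072 for thyroid hormone genes. At the 50th percentile it was 0.20 for estrogen and progesterone targets, a change of sign from -0.04. At the olfactory receptor level it was 0.35 for vitamin D genes, -0.22 for glucocorticoid receptor genes, -0.34 for steroid synthesis and 0.12 for PPAR targets, a change of sign from -0.16. Lists left with under 3 genes were not summarized. No paired analysis was possible because 1 array per group was analysed. Differences of dim genes are the least certain, and their background signal was not examined.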
